A study of Mus musculus with 24 samples.

Results

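The genes described here are 50 genes of DNA replication and S phase, chosen by name, and all 50 were found among the 27179 genes of the count table. They were sorted by their known role into 9 groups: origin licensing (10 genes), helicase activation (5), polymerases and primase (6), the sliding clamp and its loaders (6), single-strand binding and Okazaki fragment joining (3), nucleotide supply (5), chromatin assembly and histone supply (5), entry into S phase (3), and fork protection and repair (7). Their poly(A) RNA was measured in 3 populations sorted from mouse bone marrow: stem cells (HSC), the multipotent progenitors called MPP, and restricted progenitors named HPC-1. Each population came from the same 8 mice, 4 with Phf6 deleted and 4 with Phf6 intact (controls), 1 of each in 4 litters, so every group held 4 libraries. The X-linked gene Phf6 encodes a chromatin-associated protein and is recurrently mutated in human leukaemias. The strain label of every mouse, deleted and control alike, reads Phf6lox/Y;Tie2-creTg/+, which combines a floxed Phf6 allele over the Y chromosome with Cre under a promoter active in endothelial and blood cells. Whether the control animals carried Cre cannot be settled from that shared label. The labels used here give no age. The lineage markers CD3, B220, GR1 and TER119 were used to deplete mature cells before sorting on cKIT, SCA1, CD150 and CD48.

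DNA replication is prepared in G1, when the origin recognition complex, Cdc6 and Cdt1 load the ring of the MCM2 to MCM7 helicase onto DNA. At the start of S phase Cdc45, the GINS complex and Mcm10 turn that ring into a moving helicase, primase and the polymerases copy the strands, and the clamp Pcna, loaded by replication factor C, holds the polymerases on DNA. E2F transcription factors switch on most of these genes together when a cell commits to divide, which is why their RNA is widely used as a measure of cycling. In marrow, most HSC are held in quiescence while progenitors divide more often.

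Total counts per library ran from 9658167 to 27786830. Phf6, the check of the labels, was lower in every deleted library than in every control library of its population. Its log2 differences with deletion were -1.95 ± 0.22 (SE) for HSC, -1.82 ± 0.18 for MPP and -2.08 ± 0.16 for HPC-1 (edgeR quasi-likelihood adjusted p = 0.0211, 0.00432 and 3.3e-05). A different library kit was used for HPC-1 (TruSeq Stranded) than for HSC and MPP (SMART-Seq v4), so levels in HPC-1 were not set against the others. The libraries of deleted mouse 3 stood apart, with 14212 genes detected in HSC and 14710 in MPP, the fewest in either population. Its MPP library also had 9.34% of counts in the top 10 genes and a summed level of 13 mitochondrial genes of 56704 CPM (counts divided by the scaled library total), the highest of all 24 libraries. The libraries of deleted mouse 4 held the highest summed level of the 16 neutrophil and monocyte markers in each population. Among 12 lymphoid markers Pax5, Ebf1, Cd3e and Cd8a had 0 counts in the HSC and MPP libraries, and Cd79b had the highest level, 37.3 CPM in control HSC.

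The RefSeq promoter table (GRCm38.p6) held 39 of the 50 genes, and 10 of these carried an E2F word within the 250 bases before a transcript start. The words searched were TTTCCCGC, TTTCGCGC, TTTGCCGC and TTTGGCGC, on both strands. The same words were in the 250 bases before the start of 2.16% of all 27025 genes of the table and 3.96% of the 10377 genes that were also tested in MPP against HSC. Windows of 250 bases are shown for the 3 genes whose window lies outside the annotated gene, 5′ to 3′ on the strand of the gene, with the words in capitals (overlapping words run together). Mcm6 is the helicase subunit with the highest level below, and Gins3 and Rfc3 belong to the helicase activators and the clamp loader.
Mcm6 (chr1:128359706-128359955, minus strand): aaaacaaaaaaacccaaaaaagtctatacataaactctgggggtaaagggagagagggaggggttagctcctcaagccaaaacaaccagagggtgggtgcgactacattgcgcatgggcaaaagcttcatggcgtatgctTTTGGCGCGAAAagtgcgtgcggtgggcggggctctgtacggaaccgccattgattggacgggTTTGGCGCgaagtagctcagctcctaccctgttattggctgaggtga
Gins3 (chr8:95633309-95633558, plus strand): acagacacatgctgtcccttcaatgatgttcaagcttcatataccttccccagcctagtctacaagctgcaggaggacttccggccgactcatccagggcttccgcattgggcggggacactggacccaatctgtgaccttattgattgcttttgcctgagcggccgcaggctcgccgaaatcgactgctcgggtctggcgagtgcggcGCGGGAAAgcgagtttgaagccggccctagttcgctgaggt
Rfc3 (chr5:151651209-151651458, minus strand): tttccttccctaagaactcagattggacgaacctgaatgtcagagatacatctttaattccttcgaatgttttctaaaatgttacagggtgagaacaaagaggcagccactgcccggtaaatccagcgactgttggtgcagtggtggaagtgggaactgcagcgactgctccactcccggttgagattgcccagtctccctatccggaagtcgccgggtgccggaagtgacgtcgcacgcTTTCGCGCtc

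For the other 7 genes the window reached into the annotated span of the gene, because RefSeq also lists an earlier start, and only the word with 9 bases on each side is shown. Mcm5, Mcm7, Orc1, Hells and Uhrf1 were lower in control MPP than in control HSC at the threshold used below, and Cdc6 and Pola1 were not.
Mcm5 (chr8:75109347-75109376, plus strand): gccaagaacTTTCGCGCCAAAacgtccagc
Mcm7 (chr5:138172032-138172057, minus strand): tttcgaaccGCGGGAAAcagggtgtc
Orc1 (chr4:108579418-108579443, plus strand): cggttagtgGCGCGAAAagttttctc
Cdc6 (chr11:98908004-98908029, plus strand): cggtggagaGCGGGAAAtcgcctggg
Hells (chr19:38930919-38930944, plus strand): ccaccgggtTTTCCCGCgaaagagaa
Uhrf1 (chr17:56304119-56304144, plus strand): cgagtcgggTTTCGCGCgcccaggcg
Pola1 (chrX:93632277-93632302, minus strand): catcacaggGCGCCAAAtgcactccc

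A match is a run of letters and not a shown binding site. The median log2 difference between MPP and HSC of controls was -0.54 over the 10 genes with a word and -0.63 over the 29 without, and 5 of 10 and 21 of 29 passed the test described next. The CCAAT word was in 22 of the 39 genes, against 40.7% of the tested genes, and GGGCGG was in 27 of 39, against 62.8%.

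Levels of different genes are compared here per length (RPKM, CPM divided by the counted length in kilobases). In control HSC the highest were Tipin, a partner of the fork protection factor Timeless, at 292 ± 58 RPKM (SD, n = 4), Mcm6 at 267 ± 44 and the clamp loader subunit Rfc2 at 232 ± 24, and their ranges overlapped. The lowest were Clspn, a mediator of the replication checkpoint, at 5.69 ± 1.3 RPKM, the uracil DNA glycosylase Ung at 3.04 ± 0.69 and Wdr76 at 2.87 ± 0.99. Among the 6 subunits of the MCM ring, which are present once each per ring, Mcm6 had the highest RPKM in all 24 libraries.

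**Figure D1:**
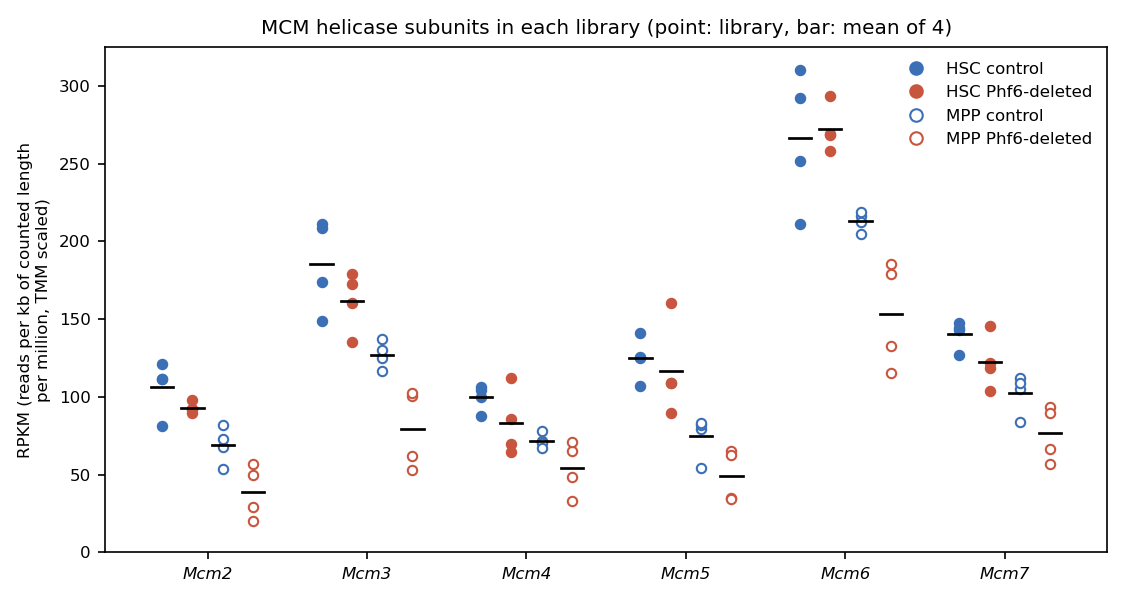
RPKM (vertical axis, linear from 0) of the helicase subunits Mcm2 to Mcm7 in each HSC library (filled points) and MPP library (open points) of control (blue) and Phf6-deleted (red) mice, with black bars for the means of 4. Mcm6 is the highest subunit in each group, and for each subunit the mean of control MPP lies below that of control HSC and the mean of deleted MPP is the lowest of the 4 groups.

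The first comparison set MPP against HSC within the 4 control mice. All 50 genes were lower in MPP, with a median log2 difference of -0.61 against -0.01 over all 13636 genes tested. At an adjusted p under 0.05 (edgeR's quasi-likelihood test, Benjamini-Hochberg over all genes tested), 33 of the 50 fell and 0 rose. Of all genes tested 4.78% fell and 8.84% changed in either direction. An unadjusted p under 0.05 was reached by 45 of the 50, and by 2982 of all 13636 genes in either direction. In 35 of the 50 every MPP library was below every HSC library, which held for 7.79% of all genes. The summed level of the 50 genes was 7803 to 8791 CPM in the HSC libraries and 5268 to 6010 CPM in the MPP libraries. Within single mice 46 to 49 of the 50 were lower in MPP, with medians from -0.42 to -0.79. In such bulk samples fewer cells in S phase and less of each RNA per cell cannot be told apart. The direction was opposite to that given above for division of HSC and progenitors, and the reason was not tested.

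Nucleotide supply, the enzymes that make and clean the pool of DNA precursors, fell in all 5 of its genes. Tyms, thymidylate synthase, had the lowest p of the 50 genes: its HSC values, from litter 1 to litter 4, were 115, 133, 123 and 128 CPM, and its MPP values 68.9, 72.6, 66.6 and 70.3 CPM. The groups did not overlap and each was narrow, and the difference was -0.85 ± 0.11 (log2, SE), 1.81-fold lower (adjusted p = 0.000488). Tk1, the thymidine kinase of the salvage pathway, fell further (-1.24 ± 0.19, adjusted p = 0.00141). Rrm1, the large subunit of ribonucleotide reductase, fell as well (-0.68 ± 0.11, adjusted p = 0.00212), as did Dut, which removes dUTP (-0.69 ± 0.13, adjusted p = 0.00505), and Rrm2, the small subunit of the reductase (-0.67 ± 0.14).

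Origin licensing fell in 8 of 10 genes, with a median of -0.59. Orc1, the largest subunit of the origin recognition complex, had the lowest p of the group, with 18.8, 18.1, 24.1 and 26.9 CPM in HSC and 10.4, 11.6, 9.03 and 10.7 CPM in MPP. These did not overlap and the log2 difference was -1.09 ± 0.21. The helicase subunits Mcm2, Mcm3, Mcm4, Mcm5 and Mcm7 fell, with -0.63, -0.56, -0.49, -0.75 and -0.47 in that order. Orc6, another subunit of the origin recognition complex, and the licensing factor Cdt1 fell as well, at -0.66 ± 0.13 and -0.68 ± 0.17. Mcm6, at -0.33 ± 0.13 (adjusted p = 0.147), and the loading ATPase Cdc6, at -0.29 ± 0.12 (adjusted p = 0.185), did not pass. The groups of Mcm2 overlapped, since HSC of litter 1 was at 274 CPM and MPP of litter 4 at 277 CPM.

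Of the helicase activators 3 of 5 fell. Cdc45, which joins the MCM ring when it starts to move, was at 64.5, 70.4, 83.9 and 59.9 CPM in HSC and 37.7, 41.0, 34.6 and 36.2 CPM in MPP. Every MPP library was well below every HSC library, and the difference was -0.91 ± 0.15 (adjusted p = 0.00188). Mcm10 and Gins2, a subunit of the GINS complex, also fell, at -0.86 ± 0.23 and -0.83 ± 0.23. Gins1 and Gins3, subunits of the same complex, were at -0.53 ± 0.18 and -0.34 ± 0.21 and did not pass.

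Among polymerases and primase 3 of 6 fell. Prim2, the regulatory subunit of primase, was at 51.4, 54.5, 49.1 and 49.7 CPM in HSC and 25.6, 29.2, 31.0 and 25.6 CPM in MPP, again without overlap, a difference of -0.89 ± 0.14 (adjusted p = 0.00167). The catalytic primase subunit Prim1 and the lagging strand polymerase subunit Pold1 fell, at -0.69 ± 0.15 and -0.54 ± 0.14. The leading strand polymerase Pole was at -0.44 ± 0.17 (adjusted p = 0.139). Pola1 and Pola2, subunits of the polymerase that extends primers, were at -0.64 ± 0.20 and -0.39 ± 0.13 and did not pass.

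The clamp and its loaders had the smallest median of the 9 groups, -0.41, and 3 of 6 fell. Rfc5, a loader subunit, was at 129, 141, 135 and 139 CPM in HSC and 99.2, 92.1, 78.2 and 88.8 CPM in MPP (-0.62 ± 0.12, adjusted p = 0.00505). The clamp itself, Pcna, fell (-0.47 ± 0.13), and so did Dscc1, a subunit of an alternative loader that acts in sister chromatid cohesion (-0.85 ± 0.19). The loader subunits Rfc2, Rfc3 and Rfc4 were at -0.31, -0.21 and -0.36 and did not pass. RefSeq names pseudogenes of Pcna and Tyms, so some of their reads may be shared with copies.

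All 3 genes of single-strand binding and Okazaki fragment joining fell. Lig1, the ligase that seals the lagging strand, was at 194, 163, 149 and 153 CPM in HSC and 104, 114, 74.1 and 98.0 CPM in MPP, and differed by -0.77 ± 0.15. The flap nuclease Fen1 (-0.60 ± 0.14) and the single-strand binding subunit Rpa2 (-0.43 ± 0.11) fell too.

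Of the chromatin group 3 of 5 fell. Uhrf1, which recruits the maintenance DNA methyltransferase to new DNA, was at 198, 265, 252 and 193 CPM in HSC and 141, 146, 103 and 145 CPM in MPP, without overlap, at -0.78 ± 0.15. Chaf1a, the large subunit of the chromatin assembly factor CAF-1, fell (-0.79 ± 0.19), and so did the remodeller Hells (-0.61 ± 0.15). The CAF-1 subunit Chaf1b and the histone mRNA binding protein Slbp were at -0.37 ± 0.13 and -0.38 ± 0.15 and did not pass.

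Of the 3 genes of entry into S phase 2 fell. E2f1, the transcription factor that induces S phase genes, was at 122, 142, 125 and 157 CPM in HSC and 65.6, 64.7, 52.3 and 79.4 CPM in MPP. The difference was -1.07 ± 0.15, 2.10-fold lower (adjusted p = 0.000693). Ccne2, a cyclin that drives S phase entry, fell (-0.91 ± 0.23), whereas its relative Ccne1 was at -0.61 ± 0.32 (adjusted p = 0.286).

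Fork protection and repair was the most varied group, with 3 of 7 genes lower past the threshold. Clspn was at 37.3, 28.3, 22.3 and 25.4 CPM in HSC and 9.58, 11.2, 10.9 and 11.6 CPM in MPP, the largest difference of the 50 genes, -1.40 ± 0.21 or 2.64-fold (adjusted p = 0.00106). The exonuclease Exo1 (-1.20 ± 0.21, adjusted p = 0.00284) and the deubiquitinase Usp1 (-0.55 ± 0.12) fell as well. The helicase Blm and Tipin were at -0.56 ± 0.19 and -0.52 ± 0.17 and did not pass. Ung and Wdr76 were at -0.36 ± 0.40 and -0.05 ± 0.29, and both were among the genes with the fewest counts.

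**Figure D2:**
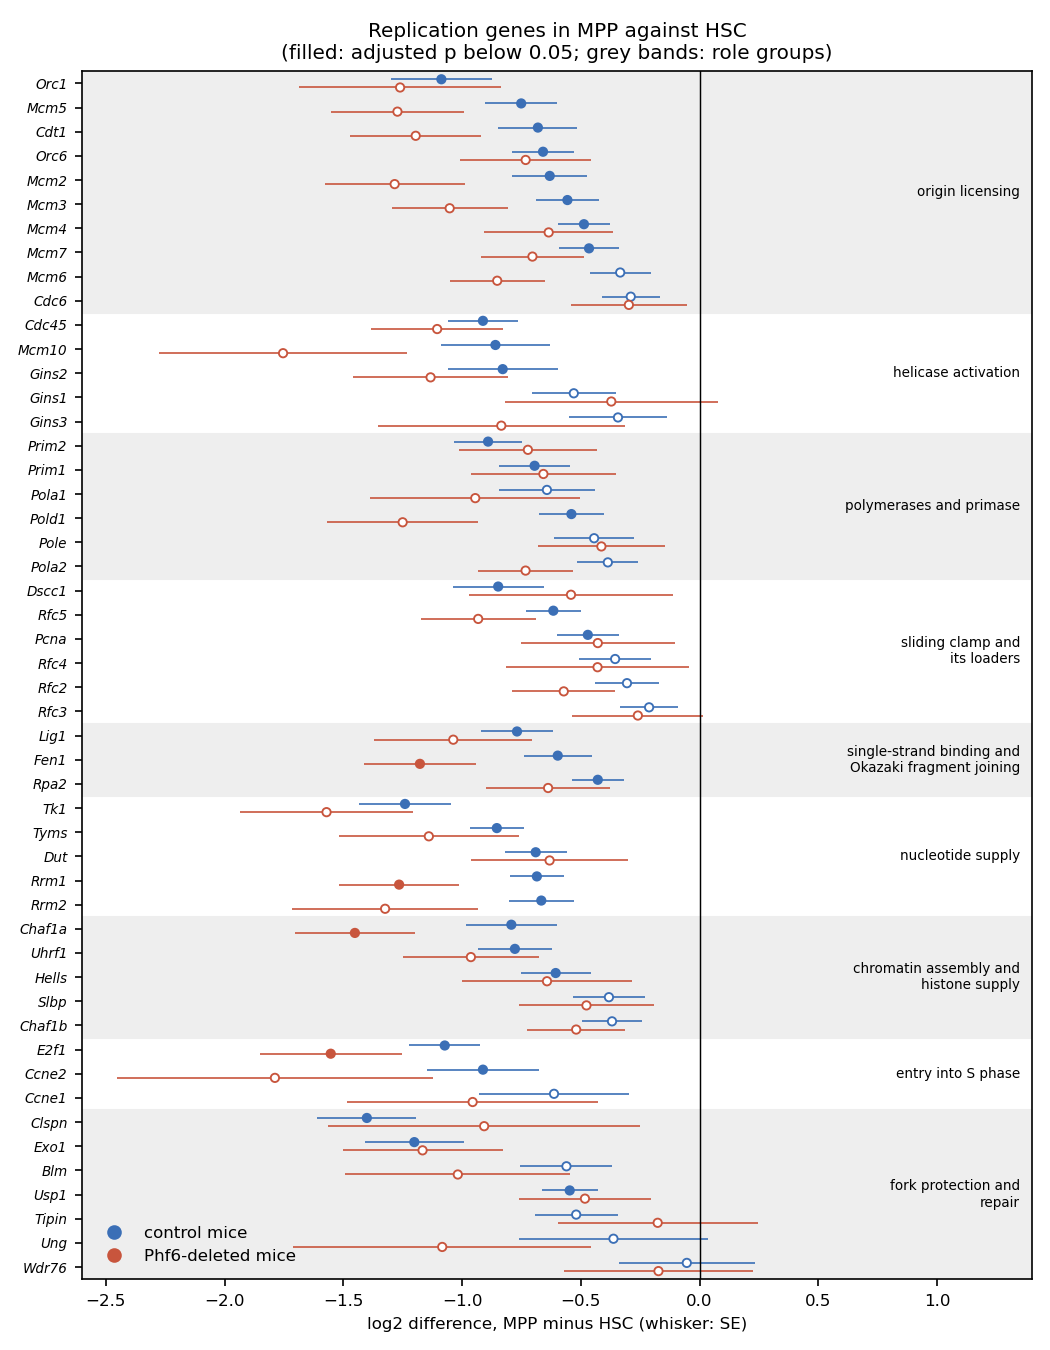
Log2 difference between MPP and HSC (horizontal axis, whiskers are SE) of each of the 50 genes in control mice (blue) and Phf6-deleted mice (red), ordered by role group, with filled points for an adjusted p under 0.05. All points lie below 0 in both genotypes; 33 are filled in controls and 4 in deleted mice, where the whiskers are longer.

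The number past the threshold in controls moved with the setting. It was 13 in a fit over all 24 libraries and 40 with mouse as a block (33 of them the 33 above). Without the HSC library of control mouse 2 it was 21. Over all genes 670 of 15316, 2109 of 13636 and 853 of 13973 passed in those fits, in that order. Of the 50 genes, 18 were called in each of the 8 fits that left out 1 library. Genes of the same processes outside the 50 were lower too. Of 66 other replication genes, 28 fell and 0 rose (median -0.48), among them the histone chaperone Asf1b at -1.31 ± 0.13, the S phase cyclin Ccna2 at -1.20 ± 0.14 and the topoisomerase Top2a at -1.09 ± 0.14. Of 30 genes of G2 and M phase, 28 fell, with a median of -1.04. They included the mitotic kinase Aurkb at -1.46 ± 0.12, Ube2c at -1.72 ± 0.14, Kif11 at -1.41 ± 0.13 and Birc5 at -1.47 ± 0.14.

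Markers of the sort and of other cells differed between the same libraries. Slamf1, the gene of CD150, averaged 67.2 CPM in control HSC and 1.9 CPM in control MPP, and Flt3, a marker of progenitors, 43.3 and 447 CPM. However, the stem cell genes Hlf, Procr and the SCA1 gene Ly6a were higher in MPP, by 1.15, 0.81 and 0.99 on the log2 scale. Of 18 megakaryocyte genes, a list added after the values were seen, 16 could be tested and 13 were lower in MPP (median -2.76). Their summed level was 2389 to 3164 CPM in HSC and 1059 to 1152 CPM in MPP, and Itga2b averaged 482 and 69.1 CPM. Gp6 of this list was at 0 in both. The 16 neutrophil and monocyte markers were all lower in MPP with 0 past the threshold, and summed to 642 to 8049 CPM in control HSC and 264 to 3027 CPM in control MPP. The part of either marker list in the difference of the replication genes was not tested.

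In the deleted mice, which are other animals, all 50 genes were again lower in MPP than in HSC, with a median of -0.92 against 0.02 over all 13887 genes tested. At the threshold 4 of 50 fell, where 0.771% of all genes fell and 1.41% changed. With mouse as a block 12 of the 50 were called, with DESeq2 21, with limma-voom 10 and in a fit over all 24 libraries 31. Calls over all genes rose as well, to 293, 843 and 271 of 13887 and 1843 of 15316 in those fits, in that order. An unadjusted p under 0.05 was reached by 30 of the 50, and by 1993 of all 13887 genes in either direction. In 19 the groups did not overlap, against 5.66% of all genes. The 4 genes were Chaf1a at -1.45 ± 0.25 (adjusted p = 0.0215), E2f1 at -1.55 ± 0.30 (adjusted p = 0.0315), Rrm1 at -1.26 ± 0.25 (adjusted p = 0.0352) and Fen1 at -1.18 ± 0.24 (adjusted p = 0.0362), and all 4 were also among the 33 of the controls. Chaf1a, E2f1 and Fen1 each overlap the span of another counted gene (Ubxn6, Necab3 and Tmem258), so part of their reads is uncertain. The fifth by p, Mcm5, was at -1.27 ± 0.28 (adjusted p = 0.0537).

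Chaf1a was at 118, 91.8, 108 and 96.5 CPM in the HSC of deleted mice 1 to 4 and at 50.7, 45.6, 25.0 and 33.1 CPM in their MPP. E2f1 was at 122, 121, 134 and 92.8 CPM in HSC and at 56.3, 52.6, 31.1 and 23.0 CPM in MPP. In both genes each mouse was lower in MPP than in HSC, and mice 3 and 4 had the lowest MPP values. Of the 66 other replication genes, Asf1b alone fell (-1.60 ± 0.33), and of the G2 and M phase genes 4 of 30 fell. The spread between deleted mice was wide. Without the HSC and MPP libraries of mouse 4, an exclusion chosen after seeing the data, 0 of the 50 passed, 49 were below 0 and the median was -0.86. Leaving out 1 library left between 0 and 4 genes past the threshold. The count was 0 without HSC of mouse 1, 2 or 3 or MPP of mouse 2 or 4, 1 without MPP of mouse 1 and 2 without MPP of mouse 3.

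The second question was how loss of Phf6 changed these genes in each population. In MPP none of the 50 passed the threshold (lowest adjusted p 0.551, edgeR), where 0.029% of all 13806 genes passed. DESeq2 and limma-voom also called 0 of the 50. Values below 0, meaning lower in deleted mice, were found for 36 genes and above 0 for 14, with a median of -0.29 against 0.02 over all genes. An unadjusted p under 0.05 was reached by 9 genes, all lower, where 2.38% of all genes were lower and 5.71% higher at that level. The count of 9 became 4 without control mouse 1, control mouse 4 or deleted mouse 4, 5 without control mouse 2 and 14 without deleted mouse 2. The count over all genes, in either direction, moved as well, from 1117 of 13806. It was 863 of 14093, 618 of 14094, 1441 of 14016, 632 of 14092 and 1580 of 14050 in those fits, in that order. In 4 genes, Mcm3, Fen1, Mcm6 and Pold1, every deleted library was below every control library, which held for 2.82% of all genes.

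Chaf1a had the lowest p, at 77.2, 79.9, 48.4 and 79.3 CPM in control MPP of litters 1 to 4 and 50.7, 45.6, 25.0 and 33.1 CPM in deleted MPP. The lowest control, litter 3, lay within the deleted range, and the difference was -0.89 ± 0.26 (edgeR adjusted p = 0.551). The licensing group held 4 of the 9 genes and had a median of -0.43, with 9 of its 10 genes below 0. Mcm3 was at 360, 397, 337 and 375 CPM in controls and 289, 296, 153 and 180 CPM in deleted mice. The groups were apart, with mice 3 and 4 far below mice 1 and 2 (-0.68 ± 0.22, adjusted p = 0.554). Mcm2, Mcm6 and Mcm5 were at -0.84 ± 0.30, -0.48 ± 0.18 and -0.61 ± 0.25, and Mcm7, which missed an unadjusted p of 0.05, at -0.43 ± 0.20.

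Fen1 was at 108, 111, 92.4 and 105 CPM in control MPP and 92.1, 79.0, 53.5 and 57.9 CPM in deleted MPP, barely apart at litters 1 and 3 (-0.56 ± 0.20, adjusted p = 0.592). Pold1 was at 207, 199, 172 and 236 CPM in controls and 158, 167, 52.0 and 116 CPM in deleted mice, with mouse 3 the lowest (-0.73 ± 0.30, adjusted p = 0.609). E2f1 was at 65.6, 64.7, 52.3 and 79.4 CPM in controls and 56.3, 52.6, 31.1 and 23.0 CPM in deleted mice (-0.69 ± 0.28, adjusted p = 0.609). Control mouse 3 lay just below deleted mice 1 and 2. Rrm1 was at 293, 263, 303 and 246 CPM in controls and 253, 238, 156 and 134 CPM in deleted mice (-0.50 ± 0.22, adjusted p = 0.616). In each of the genes of this paragraph deleted mice 3 and 4 were the lowest of all 8 libraries.

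The remaining role groups held no gene with an unadjusted p under 0.05. Mcm10, the helicase activator with the lowest p, was at 18.4, 24.5, 14.0 and 19.3 CPM in controls and 10.2, 20.1, 4.16 and 4.75 CPM in deleted mice (-0.96 ± 0.46, adjusted p = 0.617). Rfc2, of the clamp loaders, was at 322, 281, 228 and 316 CPM in controls and 276, 224, 181 and 219 CPM in deleted mice (-0.35 ± 0.18, adjusted p = 0.627). The clamp group as a whole had 4 of 6 genes above 0 and a median of 0.23. These 4 were Pcna, Rfc3, Rfc4 and Dscc1, and their values against the littermate were highest in litter 3 (log2 0.88, 0.55, 0.85 and 1.67). In litter 4 all 4 were below 0, at -0.46, -0.10, -0.63 and -0.97, and in litters 1 and 2 they ran from -0.18 to 0.40. In the fork group Clspn was at 9.58, 11.2, 10.9 and 11.6 CPM in controls and 9.80, 14.8, 42.9 and 6.43 CPM in deleted mice, where mouse 3 was the highest and mouse 4 the lowest (0.77 ± 0.51, adjusted p = 0.645). Of the 66 other replication genes, 39 were below 0 (median -0.07) and 0 passed, and of the G2 and M phase genes 25 of 30 were below 0 (median -0.28) and 0 passed.

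**Figure D3:**
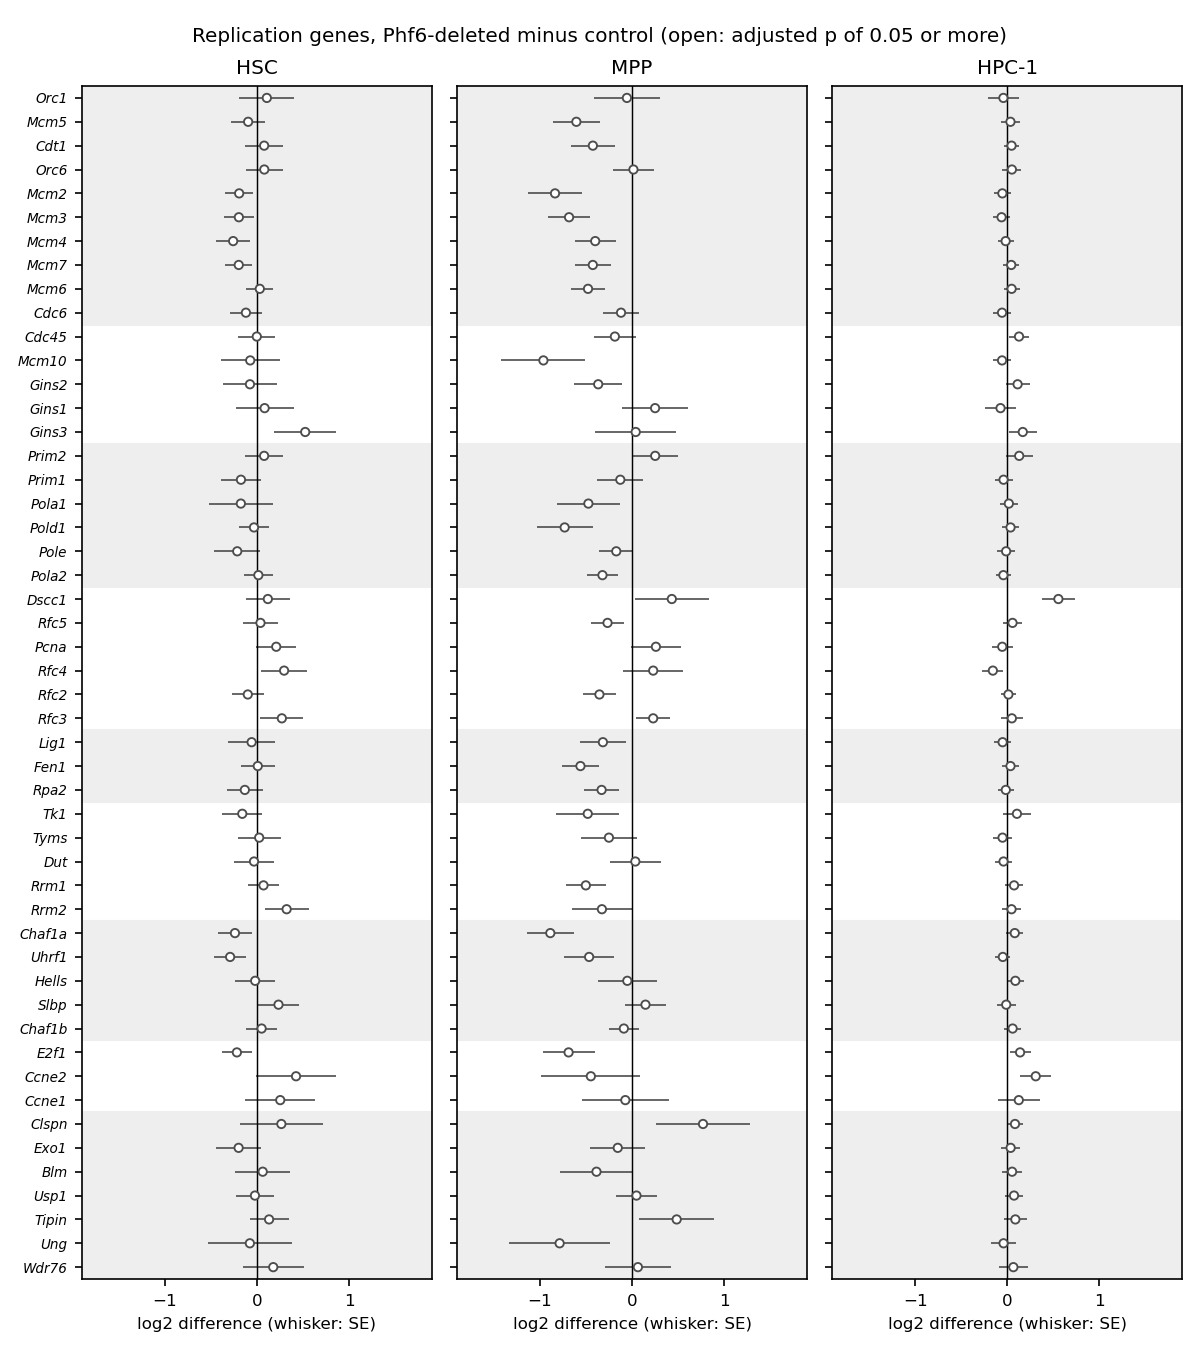
Log2 difference between Phf6-deleted and control libraries (horizontal axis, whiskers are SE) of each of the 50 genes in HSC, MPP and HPC-1, ordered by role group as in the plot of MPP against HSC. No gene passes the threshold; points in HPC-1 run from -0.15 to 0.56, the latter being Dscc1, and 36 of 50 points in MPP lie below 0.

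Set beside its control littermate, deleted mouse 4 was lower for 50 of 50 genes in MPP, with a median log2 difference of -0.91, and for 46 of 50 in HSC, with a median of -0.44. In litters 1, 2 and 3 the medians in MPP were -0.13, -0.11 and -0.22, and 36, 30 and 27 genes were lower. In MPP 18 of 50 genes were lower in the deleted mouse of all 4 litters, against 10.5% of all genes. In HSC this held for 2 of 50, against 6.73% of all genes. With both MPP libraries of litter 4 left out, an exclusion chosen after seeing the data, the median over the 50 genes was -0.14 and 30 were below 0. In that fit 1 of the 50 had an unadjusted p under 0.05 and was lower, where 717 of 13844 genes had such a p in either direction.

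Values that moved with these litters are given here, and their part in the result was not tested. In deleted mouse 4 the neutrophil and monocyte markers summed to 14372 CPM in MPP and 11444 CPM in HSC, against 264 to 3027 CPM in control MPP and 642 to 8049 CPM in control HSC. All 16 markers were above 0 in the deletion comparison of each population and 0 passed the threshold. S100a8 had the highest level in MPP, averaging 750 CPM in controls and 1917 CPM in deleted mice, and no marker of the list was at 0. In litter 3 the difference between the deleted mouse and its littermate followed gene length. The 25 genes with counted lengths up to 2486 bases had a median of 0.24 in MPP and 0.53 in HSC against the littermate, and the 25 longer genes -0.37 and -0.21. Spearman's rho between length and difference across the 50 genes was -0.43 in MPP and -0.56 in HSC in that litter, and genes are not independent replicates. In litters 1, 2 and 4 rho was -0.34, 0.13 and -0.25 in MPP and 0.01, 0.01 and 0.20 in HSC. All genes tested showed the same split in litter 3, with medians of 0.16 and -0.28 in MPP and 0.22 and -0.24 in HSC. Without the MPP libraries of deleted mice 3 and 4, also chosen after seeing the data, the median over the 50 genes was -0.08 and 32 were below 0. In that fit 3 of the 50 were lower with an unadjusted p under 0.05, where 917 of 14382 genes had such a p in either direction. Without the MPP library of deleted mouse 3 alone, 45 of the 50 genes were below 0 in MPP, with a median of -0.26.

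**Figure D4:**
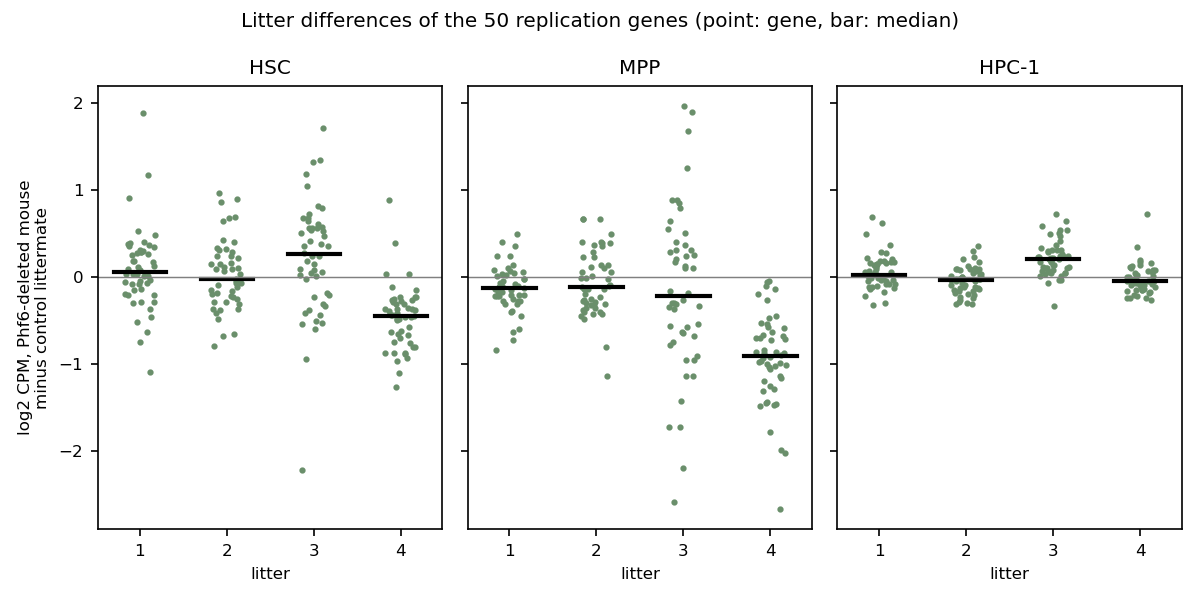
Log2 CPM of the deleted mouse minus its control littermate (vertical axis) for each of the 50 genes (points) in litters 1 to 4, for HSC, MPP and HPC-1, with bars for the medians. In litter 4 all MPP points and 46 of the HSC points lie below 0, litter 3 has the widest spread in MPP, and the HPC-1 medians lie between -0.05 and 0.20, with Dscc1 the highest point in litters 1, 3 and 4.

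In HSC none of the 50 passed the threshold (lowest adjusted p 0.998, edgeR) and none had an unadjusted p under 0.05, where 0.0073% and 3.86% of all 13693 genes did. DESeq2 and limma-voom also called 0. The genes divided evenly, 25 above and 25 below 0, with a median of 0.00. The lowest p was that of Uhrf1, at 198, 265, 252 and 193 CPM in controls and 163, 199, 223 and 159 CPM in deleted mice, which overlapped (-0.29 ± 0.17). Gins3 was next at 0.52 ± 0.34, followed by Mcm4 at -0.26 ± 0.18, Mcm7 at -0.20 ± 0.15 and Rrm2 at 0.32 ± 0.24. Without both HSC libraries of litter 4, chosen after seeing the data, 13 genes were below 0 and the median was 0.11, whereas without the HSC library of deleted mouse 3, 34 were below 0 and the median was -0.11.

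In HPC-1 none of the 50 passed (lowest adjusted p 0.633, edgeR), where 0.0647% of all 13907 genes did. DESeq2 and limma-voom called 0. The median was 0.04, with 31 genes above 0. A single gene had an unadjusted p under 0.05, where 4.99% of all genes did. This was Dscc1, at 14.6, 17.1, 12.8 and 16.3 CPM in controls and 23.6, 18.2, 21.1 and 27.0 CPM in deleted mice. The groups did not overlap and Dscc1 was higher in the deleted mouse of each litter (0.56 ± 0.18, edgeR adjusted p = 0.633). Dscc1 was picked by its p, so the lack of overlap between its groups is no separate evidence. Of the 50 genes 2 were higher in all 4 litters, against 8.17% of all genes. The next by p were Ccne2 at 0.31 ± 0.17, Rfc4 at -0.15 ± 0.11, E2f1 at 0.14 ± 0.11 and Cdc45 at 0.13 ± 0.11. E2f1 in HPC-1 was at 76.3, 74.1, 57.4 and 79.9 CPM in controls and 76.9, 73.9, 83.0 and 84.6 CPM in deleted mice, so its levels overlapped. Litter 3 gave the most one-sided values, with 46 of 50 genes higher in the deleted mouse and a median of 0.20, against -0.05 to 0.02 in the other litters. Without the HPC-1 library of control mouse 3, 33 of the 50 were below 0 and the median was -0.02.

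The differences between populations in the effect of deletion were tested directly, and none passed the threshold for any of the 50 genes. For MPP minus HSC, 38 of the 50 were below 0 with a median of -0.23, and 0% of 14561 genes passed. DESeq2 and limma-voom called 0 of the 50 in this and in both other differences. Mcm6 alone had an unadjusted p under 0.05 (-0.50 ± 0.23), where 2.86% of all genes did. Leaving out 1 library gave between 0 and 9 such genes that were lower, with 9 without the MPP library of deleted mouse 1. In that last fit 510 of 14824 genes had such a p in either direction. With mouse as a block 7 of the 50 were lower with such a p, and 6 in the fit over all 24 libraries. With limma-voom there were 4, with DESeq2 3, and with RLE or no filter 1. Over all genes, in either direction, the block gave 570 of 14561, the fit over all 24 libraries 765 of 15316, limma-voom 397 of 14561 and DESeq2 480 of 14561. Mcm6 was at 748, 851, 780 and 779 CPM in deleted HSC and 613, 731, 901 and 848 CPM in control HSC. In MPP it was at 520, 539, 386 and 336 CPM in deleted mice and 628, 594, 617 and 635 CPM in controls. The genotypes of Mcm6 were apart in MPP and overlapped in HSC. The next by p were Rrm1 and Fen1 at -0.56 ± 0.27, Chaf1a at -0.64 ± 0.32 and Pold1 at -0.69 ± 0.36.

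For HPC-1 minus MPP, 41 of the 50 were above 0 with a median of 0.29, and 0% of 15316 genes passed. An unadjusted p under 0.05 was reached by 10 genes, all higher, where 1.01% of all genes were higher at that level. They were led by Chaf1a at 0.96 ± 0.27, E2f1 at 0.82 ± 0.29, Mcm6 at 0.52 ± 0.20, Mcm2 at 0.78 ± 0.29 and Mcm3 at 0.62 ± 0.24. This test uses the MPP libraries of the deletion comparison above and is no separate evidence on them. Its median was 0.15 without the MPP library of deleted mouse 4, with 20 genes below 0. For HPC-1 minus HSC none of the 50 had an unadjusted p under 0.05, where 0.00653% of all genes passed the threshold and 3.6% had such a p.

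A score over the 50 genes, the mean of each gene's log2 CPM minus its mean over the libraries of the same kit, gives the level of each library. In HSC it was 0.33, 0.42, 0.42 and 0.43 in controls of litters 1 to 4 and 0.42, 0.45, 0.64 and -0.03 in deleted mice. In MPP it was -0.15, -0.20, -0.36 and -0.18 in controls and -0.28, -0.26, -0.52 and -1.12 in deleted mice. All MPP libraries were below all HSC libraries, and deleted mouse 4 was the lowest of each population. The means were 0.40 ± 0.05 and 0.37 ± 0.29 (SD, n = 4) in control and deleted HSC and -0.22 ± 0.10 and -0.55 ± 0.40 in control and deleted MPP. Deleted mouse 4 was the library farthest from its group mean in both. In HPC-1, centred on its own 8 libraries, the score was -0.01, 0.05, -0.20 and 0.06 in controls and 0.05, 0.00, 0.01 and 0.04 in deleted mice. There deleted mouse 4 lay within the range of the other deleted mice, and its neutrophil and monocyte sum was 6985 CPM, against 5435 CPM in deleted mouse 2.

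**Figure D5:**
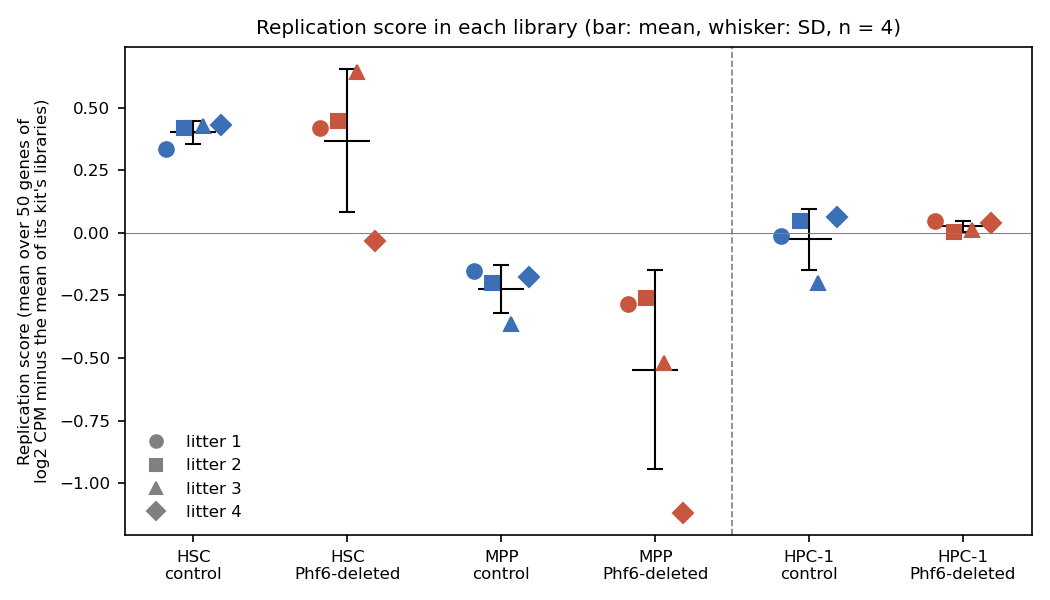
Replication score (vertical axis, mean over 50 genes of log2 CPM relative to the libraries of the same kit) of each library by group, with a symbol for each litter and bars for the mean ± SD of 4. HSC points lie above MPP points, deleted mouse 4 (diamonds) is the lowest in HSC and in MPP, and the HPC-1 points right of the dashed line are on a scale of their own.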

How the data were processed

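Whole-number counts per gene were deposited by the authors. Per the submitters' processing notes they come from bcl2fastq, featureCounts and the mouse build mm10. Which aligner, annotation, program versions and strand setting were used is "not given in the sources used here". Sequencing was paired-end with 80 bp reads (NextSeq 500), per the labels' protocols. Strand is not marked by SMART-Seq, and in HSC and MPP reads of overlapping genes are therefore uncertain. Of the 50 genes 12 overlap the span of another counted gene: Orc1, Mcm7, Cdc45, Gins2, Rfc4, Fen1, Lig1, Tk1, Chaf1a, E2f1, Ccne2 and Ung. RefSeq (GRCm38.p6) gave names for 25275 gene identifiers, and GENCODE for 18 more. Promoter coordinates are on that assembly.

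The 50 genes, their role groups, the other lists and the tests were chosen with earlier results of these data known. Each comparison was fitted on all genes of its own libraries in edgeR 4.0.16 (R 4.3.3), with TMM scaling, filterByExpr (a count of 10, and 15 in total), the robust quasi-likelihood test and Benjamini-Hochberg adjustment, with a threshold of 0.05. All 50 genes passed the filter in every comparison. SE is the log2 difference divided by the square root of F. CPM and RPKM use TMM scaling within a kit, and log2 CPM a prior count of 2. The fit was tested on simulated counts. Alternatives were RLE size factors, no filter beyond 1 count, DESeq2 1.42.0, voom of limma 3.58.1, a block for litter or mouse, 1 fit over all 24 libraries, and leaving out single libraries. Leaving out whole litters, mice or pairs of libraries was added after seeing the data. Named genes were those with the lowest unadjusted p: 10 for MPP against HSC in controls and for deletion in MPP, and 5 elsewhere. Besides these, the other genes of each role group were given by value for MPP against HSC in controls. For that comparison and for deletion in MPP, per-library values were given for the gene of each role group with the lowest p. Elsewhere per-library values were given for 1 or 2 genes.

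Replicate numbers pair the samples: the labels give genotypes the same litter, and populations the same mouse. Deviations of same-numbered libraries from their group means, over 15439 genes, had correlations of -0.01 to 0.06 (HSC), 0.03 to 0.13 (MPP) and 0.06 to 0.30 (HPC-1) between littermates. Between mice of different litters they were -0.07 to 0.06, -0.15 to 0.08 and -0.15 to 0.09. Of the 4 deleted libraries 1 (HSC), 2 (MPP) and 2 (HPC-1) correlated best with their own littermate, so these values scarcely show the litters. Between MPP and HSC of a mouse they were 0.11 to 0.26 (controls) and 0.02 to 0.32 (deleted), and all 4 MPP libraries of each genotype correlated best with their own mouse. No libraries of a group were alike within sampling noise (chi-square per degree of freedom 16.7 to 248). Amplified reads are not independent molecules. Total counts of 9658167 to 27786830 limit the precision of the low genes, such as Ung and Wdr76, most.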

Additional observations from a re-analysis of the deposited data

Results flagged for a closer look

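Among 69 groups of 4 libraries examined (the score in 6 groups and the CPM of named genes in the groups compared), 4 had a library far from the other 3 beyond the 95% critical value of Dixon's ratio. Chance flags about 1 group in 20. In control MPP, mouse 3 was apart for 3 genes: Chaf1a was at 48.4 CPM against 77.2 to 80.0 in the others, Mcm5 at 186 CPM against 271 to 286, and Dut at 90.0 CPM against 111 to 114. The replication score of control HSC was 0.334 in mouse 1, against 0.418 to 0.431 in the others, within a group whose whole range was narrow. Deleted mouse 4, the lowest by score in HSC and MPP, did not reach the critical value in either.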

How the results depend on the processing

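In MPP against HSC of controls the 33 replication genes past the threshold became 13 in 1 fit over all 24 libraries, and 21 to 35 when 1 library was left out, while all genes past it went from 1205 to 670 in that fit, to 2109 with mouse as a replicate block (40 replication genes) and to 832 to 1338 without 1 library. In deleted mice the 4 replication genes became 21 with DESeq2, 10 with limma-voom, 12 with the replicate block, 31 in the fit over all 24 libraries, 0 without mouse 4 and 0 to 4 without 1 library, and the 196 genes in all became 843, 271, 293, 1843, 55 and 54 to 208. For deletion no setting called any of the 50 genes in HSC, MPP or HPC-1, nor in the 3 differences between populations. Counts over all genes moved more: in HSC from 1 to 14 with DESeq2, 11 in the fit over all 24 libraries, 0 with the replicate block and 0 to 1 without 1 library; in MPP from 4 to 95 (DESeq2), 27 (all 24 libraries), 21 (deleted mice 3 and 4 left out), 0 (litter 4 left out) and 2 to 22 without 1 library; in HPC-1 from 9 to 20 without the filter, 68 with DESeq2, 60 with the replicate block and 1 to 11 without 1 library. For MPP minus HSC 0 genes became 2 with DESeq2, for HPC-1 minus MPP 6, and for HPC-1 minus HSC 1 became 20 with DESeq2, 0 with RLE, without the filter, with limma-voom and with the replicate block, and 0 to 7 without 1 library. The cause was not tested. All 140 medians over the 50 genes moved by less than the pooled SD of the score in the groups compared. For deleted HSC and MPP that SD includes mouse 4, and the rule ignores sign, so the limit is wide. Without 1 library the median ranged from -0.37 to -0.14 for deletion in MPP, and it was -0.08 without deleted mice 3 and 4. In HSC it ranged from -0.11 to 0.10 and in HPC-1 from -0.02 to 0.06, so its sign changed in both. The score means kept within 1 SD under RLE and a prior count of 0.5. The replicate block changed no call of a replication gene other than those given.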
